A study of Mus musculus with 2 samples.

Results

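The 10 genes described here encode parts of the striated muscle cell: the myosin light chains *Myl1* and *Mylpf*, the sarcomeric actins *Acta1* and *Actc1*, the troponins *Tnnt1*, *Tnnt2* and *Tnnc1*, the giant spring protein titin (*Ttn*), and the myogenic transcription factors *Myod1* and *Myog*. They were taken by gene name from 29924 gene names on the array and have 16 probes. *Myl1* was selected because it was among the genes with the strongest increase in this same comparison, and the other 9 were added by their function. All values of the 10 genes in this comparison are therefore a description and no test of them is drawn on. How many of them the fit over all genes called is printed once, for completeness. The question was whether *Myl1* increased alone or together with other genes of striated muscle.

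Ureters of wildtype NMRI embryos were explanted at E11.5 and kept in serum-free culture over 18 h, with IWP-2 at 10 µM or with the solvent DMSO. IWP-2 is a small molecule that blocks the enzyme PORCN and thereby the release of WNT signals. Each of 2 arrays carried RNA from 1 pool of treated and 1 pool of control ureters, each from many embryos of undetermined sex. The treated RNA carried AlexaFluor647 on array 1 and AlexaFluor555 on array 2, so that a dye effect is turned around between them. The arrays shared 1 slide and 1 scan.

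Striated muscle contracts through sarcomeres, in which thick filaments of myosin slide along thin filaments of actin. Myosin light chains sit on the neck of the myosin head, troponin and tropomyosin let calcium switch the thin filament on, and titin spans from the border to the middle of the sarcomere. In skeletal muscle precursors, MYF5 and MYOD1 set the fate and MYOG starts terminal differentiation, with MEF2 factors as partners. The wall of the mature ureter holds smooth muscle, which lacks sarcomeres and develops from the ureteric mesenchyme. Some genes are shared between muscle types during development, for instance *Actc1*.

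The probe sequences decide what each value measures, so those of the genes on which the results turn are shown here, with positions on mouse build mm9 as the files give them. Each probe has 60 bases. Of the *Myl1* probes, A_51_P416858 lies at chr1:66970948-66971007 on the minus strand, lists 2 RefSeq transcripts of the gene, has a stop codon in each forward reading frame and is shown by its first 30 bases. The other, A_52_P273120, aligns in pieces within chr1:66976853-66981100, so that it bridges at least 1 intron, and has an open reading frame. The *Tnnc1* probe within chr14:32023360-32023776 also bridges an intron. The *Acta1* probe at chr8:126416197-126416256 has 3 open reading frames, and since the coding sequences of the actins are nearly identical, its signal may come from more than 1 actin gene. All letters are 5′ to 3′ and in lower case, since no part of them is singled out.
*Myl1* probe A_51_P416858, first 30 bases: ttataagccttgagttttcatgacaaacat
*Myl1* probe A_52_P273120: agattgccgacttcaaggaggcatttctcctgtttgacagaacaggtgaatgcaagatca
*Tnnc1* probe A_51_P461894: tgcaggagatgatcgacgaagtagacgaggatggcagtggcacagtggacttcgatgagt
*Acta1* probe A_51_P246854: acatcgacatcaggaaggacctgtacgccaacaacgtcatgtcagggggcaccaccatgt

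Signal strength limits what can be said about these genes. Well above background were between 68.6% and 70.7% of all spots, depending on the channel. Median raw spot intensities, before background correction and dye normalization, lay between 307 and 680. These raw medians are on a different scale from the processed intensities given below for single probes and cannot be compared with them. Each probe was printed as 4 spots. It was kept if, in both treated pools or in both control pools, a share above 0.5 of its spots stood well above background. Of the 16 probes of the 10 genes, 12 were kept, and each gene had at least 1 kept probe. For a gene with several kept probes, the brightest was used. All changes are given as log2 ratio, IWP-2 over control, after background correction and loess normalization, with the standard deviation (SD) between the 2 arrays. The correction adds a constant of 50 to each channel, which pulls ratios of dim probes towards 0, so the intensities as processed by the scanner software are given beside them.

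*Myl1*, a light chain of fast skeletal and embryonic striated muscle myosin, was the member with the highest mean change. At probe A_51_P416858, its processed intensity was 73.1 in IWP-2 against 18.0 in control on array 1 and 38.9 against 13.1 on array 2. Both treated pools lay above both control pools, and all 4 spots were well above background in every channel. The log2 ratio was 1.40 on array 1 and 0.95 on array 2, a mean of 1.18 ± 0.32 (SD, n = 2), or 2.26-fold. From the processed intensities, the log2 ratio was 2.02 on array 1 and 1.57 on array 2. Single spots ranged from 1.26 to 1.56 on array 1 and from 0.85 to 0.99 on array 2, so the arrays differed by more than the spots within them. Among the 20119 genes tested, the mean change of *Myl1* had rank 13 from the top.

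The second *Myl1* probe gave no measurable signal. Its processed intensities were 2.10 and 1.27 in IWP-2 and 1.47 and 1.10 in control, and in no channel did any of its 4 spots stand well above background. This probe lists the transcript NM_001113387 and a predicted one, and the bright probe lists NM_001113387 and NM_021285. A failing second probe and an absence of the transcripts it lists cannot be told apart. The increase of *Myl1* thus rests on 1 probe.

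*Myog*, the factor of terminal skeletal muscle differentiation, was the second highest member. Its processed intensity was 21.3 in IWP-2 against 5.25 in control on array 1 and 11.3 against 3.75 on array 2. In IWP-2, all 4 spots were well above background on both arrays, while in control this held for 0 spots on array 1 and 1 spot on array 2. The control level is therefore uncertain, and the probe was kept only through its IWP-2 channels, which favours a higher value there. A bound sets the control, where it is dimmer, to the lowest signal that counted as well above background on that array. Averaged over both arrays, *Myog* was 1.54-fold higher in IWP-2 with this bound and 1.58-fold without it. The bound is no lower limit for a single array. The measured log2 ratio was 0.83 on array 1 and 0.50 on array 2, a mean of 0.66 ± 0.23 (SD, n = 2). *Myod1*, which acts upstream of *Myog*, did not share this. Its processed intensity was 10.6 in IWP-2 against 7.25 in control on array 1 and 11.1 against 12.8 on array 2. Its log2 ratio was 0.24 and then -0.12, with a mean of 0.06 ± 0.26 (SD, n = 2), so the arrays disagreed in direction.

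**Figure D1:**
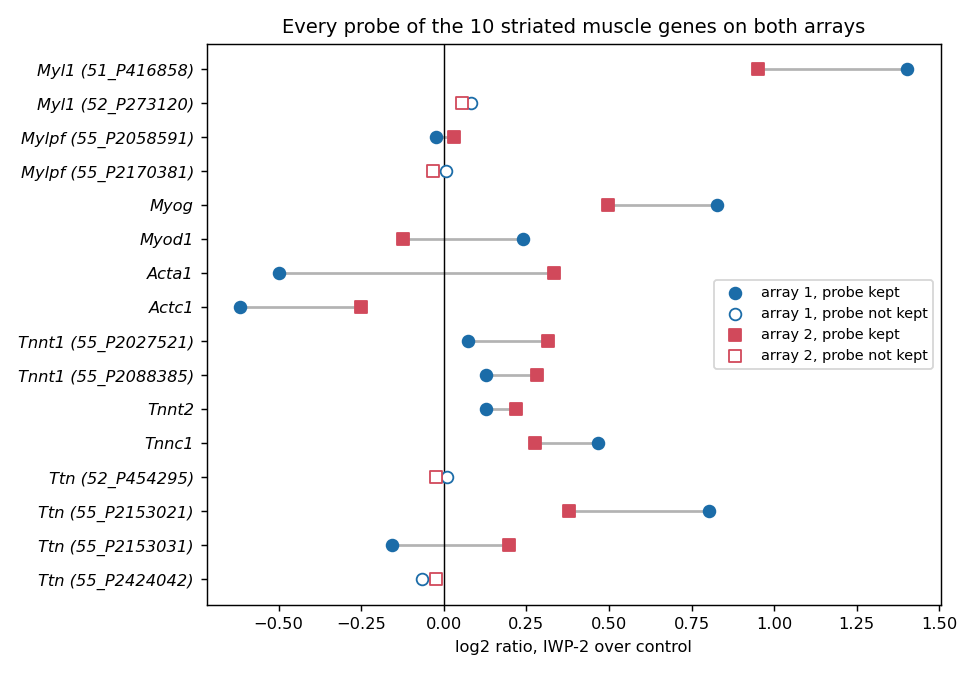
Log2 ratio of IWP-2 over control (horizontal axis) for each of the 16 probes of the 10 genes, with circles for array 1 and squares for array 2; open symbols are probes that were not kept, and numbers in brackets tell probes of 1 gene apart. The used *Myl1* probe lies at 1.40 and 0.95, *Myog* and 1 *Ttn* probe are the next highest, and *Acta1* has opposite signs on the arrays.

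The troponins among the members lay above 0 on both arrays, with smaller mean changes than *Myl1* and *Myog*. *Tnnc1*, the calcium-binding troponin of slow skeletal and heart muscle, had processed intensities of 35.1 and 32.7 in IWP-2 and 21.7 and 24.4 in control, without overlap. Its log2 ratio was 0.47 on array 1 and 0.27 on array 2, a mean of 0.37 ± 0.14 (SD, n = 2). This mean lay just above the 95th percentile of all genes, 0.36. From the processed intensities, the log2 ratio of *Tnnc1* was 0.69 on array 1 and 0.43 on array 2. *Tnnt1*, the slow skeletal troponin that anchors the complex to tropomyosin, had intensities of 316 and 330 in IWP-2 and 290 and 272 in control, with a mean log2 ratio of 0.21 ± 0.11 (SD, n = 2). Its second kept probe gave 0.19 ± 0.17 (SD, n = 2), so both probes of this gene were alike in size. *Tnnt2*, the heart form of the same subunit that is also made in embryonic skeletal muscle, had intensities of 11.4 and 16.8 in IWP-2 and 9.66 and 12.23 in control, which overlapped between the groups. Its log2 ratio was above 0 on both arrays, with a mean of 0.17 ± 0.07 (SD, n = 2).

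For *Ttn*, the result depended on the probe. The brighter kept probe, A_55_P2153031, had intensities of 7.17 and 8.14 in IWP-2 and 9.38 and 5.57 in control, and a log2 ratio of -0.16 on array 1 and 0.20 on array 2. The other kept probe, A_55_P2153021, had 13.3 and 8.97 in IWP-2 against 1.93 and 3.92 in control. In control, 0 of its 4 spots were well above background on either array, against 4 of 4 in IWP-2. This probe was therefore kept only through its IWP-2 channels. Averaged over both arrays, it was 1.45-fold higher in IWP-2 with the bound and 1.51-fold without it. Its log2 ratio was 0.80 and 0.38. The remaining 2 *Ttn* probes had 0 spots well above background in all channels. Of the kept probes, A_55_P2153021 lies at chr2:76542077-76542136 and A_55_P2153031 at chr2:76655847-76655906 on the minus strand, and both list the same 2 RefSeq transcripts. The probe chosen by brightness therefore shows no common direction. The other was higher in IWP-2 on both arrays, but the way it was kept favours that direction, so nothing is drawn from it.

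*Mylpf*, the regulatory light chain of fast skeletal muscle, showed near-equal signals. Its intensity was 38.5 and 48.6 in IWP-2 and 40.3 and 47.1 in control, and the mean log2 ratio was 0.00 ± 0.04 (SD, n = 2). The kept probe lists only a predicted transcript. The probe of the RefSeq transcript NM_016754 was not kept, with 1 of 4 spots well above background in the treated channel of array 1 and 0 in the other channels. The level of this transcript was therefore not measured. With 1 such probe, a failing probe and an absent transcript cannot be told apart.

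The sarcomeric actins did not follow *Myl1*. *Actc1*, the cardiac actin that is also made in developing skeletal and smooth muscle, had intensities of 561 and 460 in IWP-2 against 838 and 562 in control. Its log2 ratio was -0.62 on array 1 and -0.25 on array 2, a mean of -0.43 ± 0.26 (SD, n = 2), the lowest of the 10 genes. *Acta1*, the skeletal actin, had 106 and 268 in IWP-2 against 161 and 209 in control. The log2 ratio was -0.50 on array 1 and 0.33 on array 2, so the *Acta1* probe was brighter in the AlexaFluor555 channel on both arrays. Its mean of -0.08 ± 0.59 (SD, n = 2) has no direction.

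**Figure D2:**
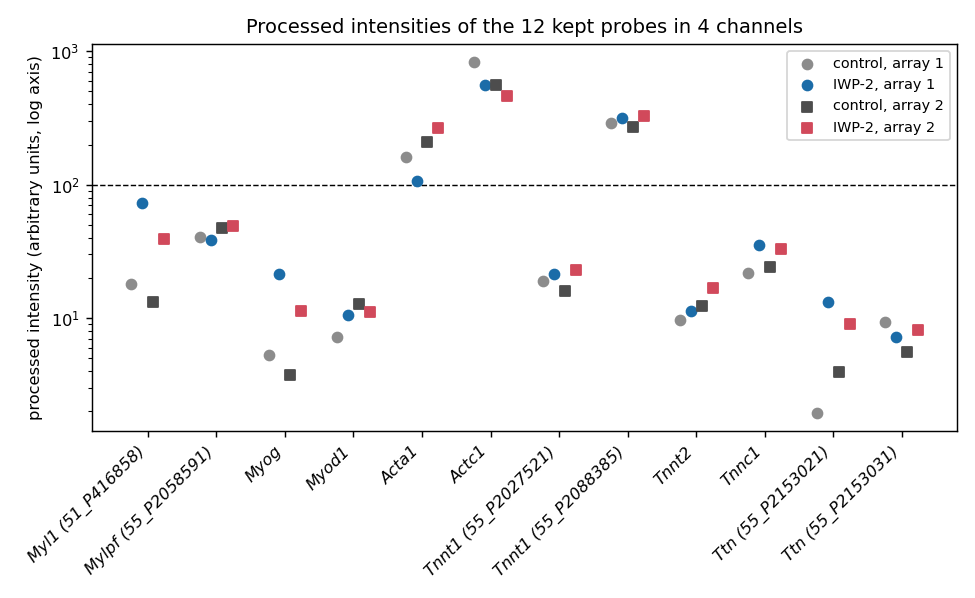
Processed intensity (vertical log axis, arbitrary units) of the 12 kept probes in the control and IWP-2 channels of both arrays; the dashed line is an intensity of 100. For *Myl1* both treated values (73.1 and 38.9) lie above both control values (18.0 and 13.1) and below the line, and for *Actc1* all 4 values lie above it.

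Of the 10 genes, 5 had a log2 ratio above 0 on both arrays (*Myl1*, *Myog*, *Tnnc1*, *Tnnt1*, *Tnnt2*) and 1 had a ratio below 0 on both (*Actc1*). The shares over all genes tested were 28.5% above 0 and 27.5% below 0. The median of the mean changes was 0.12 for the 10 genes and 0.06 for the 9 without *Myl1*, against 0.00 for all genes. At a false discovery rate (FDR) of 0.05 in limma, a linear model fitted over all genes, 1 of the 10 genes was called higher (*Myl1*) and 0 were called lower. Over all genes, 0.611% were called higher and 1.15% lower. Since the genes were selected with this comparison known, nothing is read from these counts. *Myog* was also kept only through its IWP-2 channels, which favours a ratio above 0. A filter after the study's methods, with a fold change of 2 on both arrays and a processed intensity of 100 in the brighter channel, retained 0.419% of the 14549 genes bright enough and 0 of the 10. Only *Acta1*, *Actc1* and *Tnnt1* reached that intensity on both arrays, and *Myl1* did not. RNA was taken from whole explants, so more cells of a type and more RNA per cell cannot be told apart.

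Beyond the 10 genes, 103 further genes of striated muscle were examined, in lists of myogenic regulators, sarcomere proteins, excitation and energy supply, and heart muscle. Of these, 70 could be tested, and 0 were called higher and 3 lower (limma, FDR 0.05). The shares called over all genes were 0.611% higher and 1.15% lower. At an unadjusted limma p below 0.05, 6 were higher and 10 lower. Over all genes tested, 8.67% were higher and 4.74% lower at this p. A log2 ratio above 0 on both arrays was found for 21 of 70 (30%), and below 0 for 24 of 70 (34.3%). Among all genes tested, the shares were 28.5% above 0 and 27.5% below 0. The median change of the 70 genes was -0.01, against 0.00 for all genes. Some of the 70 had strong signals in all channels. On array 1, *Tpm1* had processed intensities of 20210 in IWP-2 and 22010 in control, and *Hand2* had 12110 and 9642. Whether such signals came from striated muscle cells was not tested, so the median does not stand for such cells alone.

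Among the regulators, the highest mean log2 ratio was that of *Mymx*, which encodes a small peptide of myoblast fusion, with 0.38 ± 0.25 (SD, n = 2, limma adjusted p = 0.226). *Mymk*, which encodes its partner in fusion, was at -0.01 ± 0.12 (SD, n = 2). *Mef2a*, *Mef2c* and *Mef2d*, the genes of the MEF2 partners, had mean log2 ratios of 0.17, 0.16 and 0.06, none of which passed the test. *Tcf21* was called lower, with -0.77 ± 0.13 (SD, n = 2, limma adjusted p = 0.0247). It encodes a factor of head muscle precursors that is also a marker of the urogenital mesenchyme, and it stood in the mesenchymal list too. The other tested regulators did not pass.

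In the sarcomere list of 31 tested genes, the highest change was that of *Myh3*, the embryonic myosin heavy chain. Its processed intensity was 53.9 and 49.95 in IWP-2 against 30.7 and 33.5 in control, without overlap. The log2 ratio was 0.61 on array 1 and 0.41 on array 2, with a mean of 0.51 ± 0.14 (SD, n = 2, limma adjusted p = 0.0781). Its second kept probe gave 0.25 ± 0.02 (SD, n = 2). *Myh8*, the perinatal heavy chain, had 9.19 and 13.95 in IWP-2 against 5.18 and 5.69 in control at 1 kept probe. All 4 spots were well above background in IWP-2 on both arrays, and 0 and 2 of 4 in control. The mean log2 ratio of *Myh8* was 0.40 ± 0.15 (SD, n = 2, limma adjusted p = 0.154). Its 3 other probes were not kept. *Myh1*, a fast skeletal heavy chain, had 9.55 and 21.3 in IWP-2 against 6.56 and 8.66 in control, with a mean log2 ratio of 0.39 ± 0.34 (SD, n = 2, limma adjusted p = 0.266). *Myl4*, the light chain of embryonic muscle and atrium, followed with 0.28 ± 0.03 (SD, n = 2, limma adjusted p = 0.275). None of these passed the test. The probes of *Myh8* and *Myh1* were kept only through their IWP-2 channels, which favours a higher value there.

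*Mybpc1*, encoding the slow skeletal myosin-binding protein C, was the only gene of this list called lower. Its intensity was 35.7 and 27.5 in IWP-2 against 94.5 and 113.9 in control, and the groups did not overlap. The mean log2 ratio was -1.34 ± 0.36 (SD, n = 2, limma adjusted p = 0.0110), and the second kept probe gave -1.24 ± 0.31 (SD, n = 2). This thick filament gene therefore changed in the opposite direction to *Myl1*. *Actn3*, the fast muscle actinin, had log2 ratios of 0.87 and -1.67 and no common direction.

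In the list of excitation, calcium handling and energy supply, 0 of 17 tested genes passed, from 0.15 for the calcium store protein gene *Casq2* to -0.45 for the calcium channel gene *Ryr1* (limma adjusted p = 0.106). Of 10 tested heart genes, *Tbx5*, a transcription factor gene of heart and forelimb, was called lower at -1.005 ± 0.21 (SD, n = 2, limma adjusted p = 0.0135). *Hand2* was highest with 0.31 ± 0.02 (SD, n = 2) and did not pass. *Nkx2-5* and *Myl7*, defining markers of heart muscle, had 0 spots well above background in any channel.

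Of the 103 further genes, 33 had no kept probe. Of these, 17 had 0 spots well above background in any channel, among them the precursor and fate genes *Pax7*, *Myf5* and *Myf6*, the fast heavy chain gene *Myh2*, *Neb* of the thin filament and *Ckm*, the muscle creatine kinase. The other 16 had at least 1 such spot. More of these spots were in IWP-2 for 7 genes and in control for 6, and 3 genes had equal numbers. They were in IWP-2 alone for 4 genes, namely *Mybpc3* and *Mybph*, which encode thick filament proteins, *Chrna1* of the acetylcholine receptor, and *Sln*, which encodes a regulator of the calcium pump, and in control alone for *Myom2*, which encodes a protein of the sarcomere's middle line. *Mybph* had processed intensities of 10.3 and 5.47 in IWP-2 against 4.02 and 2.36 in control. Those of *Sln* were 7.99 and 4.27 against 1.81 and 1.77. Both genes thus had higher signals in IWP-2 on both arrays, at levels near background where no test was made. They were singled out after their values were seen.

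Markers of the ureter itself were present. All 10 genes of the mesenchymal list and all 10 of the epithelial list could be tested, and 3 of the former (*Foxf1*, *Tbx18* and *Tcf21*) were called lower. The mesenchymal genes ran from -1.57 for *Foxf1* to 0.50 for the growth factor receptor gene *Pdgfrb*, and the epithelial genes from -0.45 for the ligand gene *Wnt9b* to 0.35 for the receptor gene *Ret*.

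**Figure D3:**
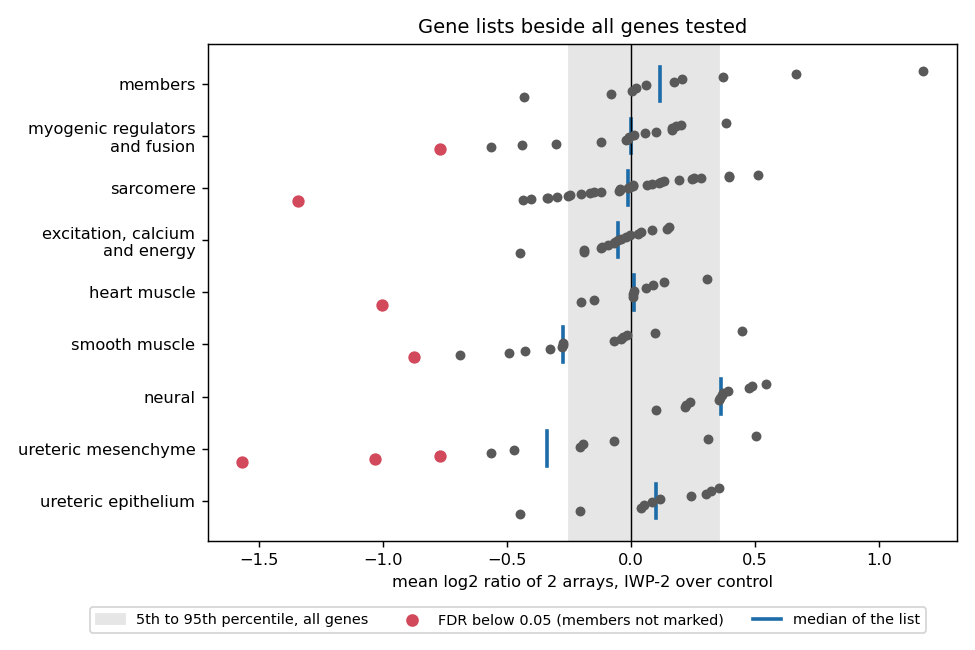
Mean log2 ratio of IWP-2 over control (horizontal axis) of each tested gene in 9 lists; blue bars are list medians, red points passed FDR 0.05 (not marked for the members), and the grey band spans the 5th to 95th percentile of all genes, -0.25 to 0.36. *Myl1* lies at 1.18, the other striated muscle lists have medians near 0, and the smooth muscle list has a median of -0.27.

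The families of the members were compared as a whole. Of 10 tested myosin light chain genes, *Myl1* was highest at 1.18 and *Myl4* came next at 0.28. The light chain genes *Myl2* of the ventricle, *Myl3* of slow muscle and ventricle, and *Myl9* of smooth muscle had -0.20, -0.05 and -0.27. Of 6 actin genes, 0 were above 0 on both arrays and 3 were below 0 on both. These were *Actc1* and the smooth muscle actin genes *Acta2* (-0.27 ± 0.05, SD, n = 2) and *Actg2* (-0.43 ± 0.38, SD, n = 2), none of which passed the test. The cytoplasmic actin genes *Actb* and *Actg1* changed sign between the arrays, as *Acta1* did, but the other way around. Of 8 troponin genes, 4 were above 0 on both arrays and 3 were below 0 on both, and 0 passed the test. The highest was *Tnnc1* and the lowest *Tnni1*, the inhibitory subunit of slow muscle, at -0.34 ± 0.34 (SD, n = 2).

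**Figure D4:**
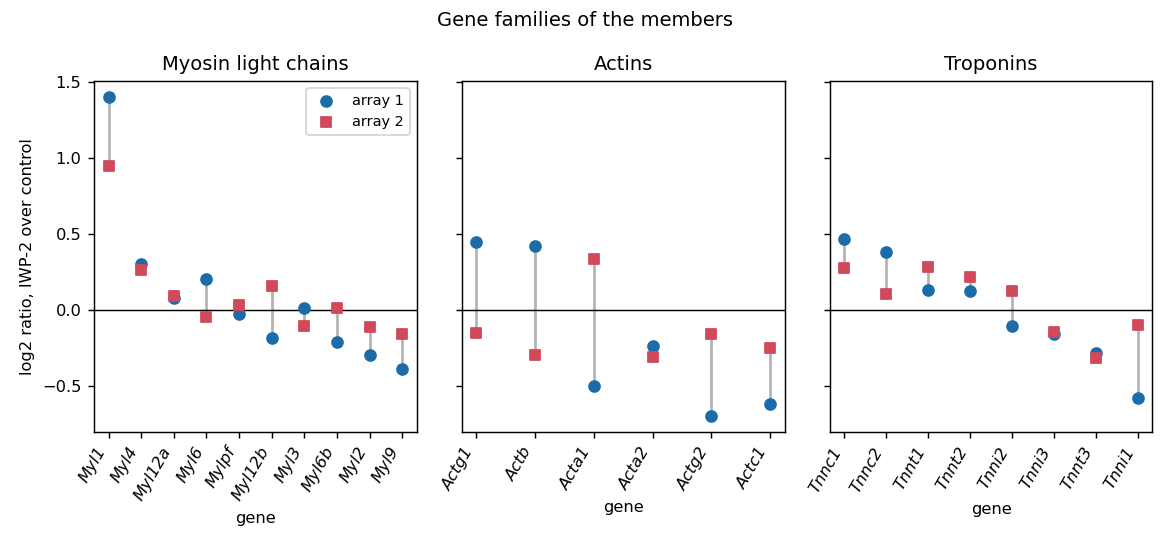
Log2 ratio of IWP-2 over control (vertical axis) on array 1 (circles) and array 2 (squares) for the tested myosin light chain, actin and troponin genes, ordered by the mean. *Myl1* lies at 1.40 and 0.95, while all other genes of the 3 families lie between -0.70 and 0.47.

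Smooth muscle genes, the muscle genes proper to the mature ureter, had the opposite tendency to *Myl1*. The paper places *Myocd* expression and smooth muscle differentiation at later stages than these explants. The values are therefore of early transcripts and not of formed smooth muscle. Of 14 tested, 10 were below 0 on both arrays and 2 above, against 27.5% and 28.5% of all genes. The median of the mean changes was -0.27, with -0.30 on array 1 and -0.11 on array 2. *Mylk*, which encodes the kinase of the smooth muscle light chain, was called lower at -0.88 ± 0.19 (SD, n = 2, limma adjusted p = 0.0196), but its second kept and dimmer probe gave 0.00. The highest of the list was *Pcp4*, a calmodulin regulator gene, at 0.45 ± 0.40 (SD, n = 2). The heavy chain gene *Myh11*, a late marker, had no kept probe.

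Markers of other tissues moved with *Myl1* in part. In the list of somite and body wall, 8 genes could be tested, and 1 was called higher, *Meox1* at 0.96 ± 0.34 (SD, n = 2, limma adjusted p = 0.0286). The summed processed intensity of the tested genes of this list was 1367 and 1181 in IWP-2 and 1035 and 1178 in control. The lowest of the list was the somite factor gene *Dmrt2* at -0.56 ± 0.37 (SD, n = 2), which did not pass. *Tcf15*, another gene of the list, had 0.38 ± 0.07 (SD, n = 2) and did not pass. *Pax3* and *Lbx1*, genes of migrating muscle precursors, had -0.30 and -0.44, and *Pax1*, *Pax7* and *Pax9* had no kept probe. Of the 8 tested genes, 2 were above 0 on both arrays and 3 below 0 on both, with a median of -0.06. The shares over all genes were 28.5% and 27.5%. In the neural list, 11 of 12 genes were above 0 on both arrays with a median of 0.36, and 0 passed the test. At an unadjusted limma p below 0.05, 8 of the 12 were higher, against 8.67% of all genes. The summed intensity of the neural list was 89010 and 79350 in IWP-2 and 65910 and 64510 in control. The part of either list in the change of *Myl1* was not tested.

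The genes whose pair of log2 ratios lay nearest to that of *Myl1*, by Euclidean distance over the 2 arrays, were *Meox1* (1.20 and 0.72, distance 0.31), *Shox2* (1.11 and 0.66, distance 0.41), *Aqp3* (0.99 and 0.99, distance 0.41), *A930009L07Rik* (1.00 and 0.84, distance 0.41) and *Slc13a3* (1.28 and 1.37, distance 0.44). None of them encodes a protein of the sarcomere.

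For a look at the sequences upstream, RefSeq promoters (build GRCm38.p6, a different build from that of the probes) were read for 9 of the 10 genes, and *Myod1* had no entry. Those of *Myl1* and *Myog*, the highest members, and of *Actc1*, the lowest, are shown over the 250 bases before the annotated start. The window was searched for the E-box CANNTG, which reads the same on both strands and is bound by MYOD1 and MYOG. It was also searched for the MEF2 site in the form YTAWWWWTAR and for the CArG box of serum response factor. In this form, Y is C or T, W is A or T, and R is A or G. Capitals mark the matches to these motifs. The *Myl1* window is chr1:66945057-66945306 on the minus strand, that of *Myog* chr1:134289754-134290003 on the plus strand, and that of *Actc1* chr2:114052876-114053125 on the minus strand.
*Myl1* promoter: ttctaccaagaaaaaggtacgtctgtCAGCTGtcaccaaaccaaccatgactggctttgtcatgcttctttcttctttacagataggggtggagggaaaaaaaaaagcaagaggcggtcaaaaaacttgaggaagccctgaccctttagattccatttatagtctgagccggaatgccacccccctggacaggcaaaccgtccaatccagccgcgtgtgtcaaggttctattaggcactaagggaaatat
*Myog* promoter: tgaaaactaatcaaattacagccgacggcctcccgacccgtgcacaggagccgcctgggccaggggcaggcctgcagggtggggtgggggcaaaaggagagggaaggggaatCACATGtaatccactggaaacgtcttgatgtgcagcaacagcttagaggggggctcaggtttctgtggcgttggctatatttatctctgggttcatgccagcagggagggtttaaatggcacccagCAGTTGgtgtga
*Actc1* promoter: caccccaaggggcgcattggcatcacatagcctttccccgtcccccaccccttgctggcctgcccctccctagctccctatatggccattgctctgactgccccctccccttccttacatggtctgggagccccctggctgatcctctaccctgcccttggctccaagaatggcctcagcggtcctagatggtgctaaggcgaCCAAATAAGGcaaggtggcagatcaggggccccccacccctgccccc

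*Myl1* had 1 E-box, of the form CAGCTG, which is found in 13.0% of the 32851 promoters in the same window. *Myog* had 2 E-boxes and *Actc1* had none but 1 CArG box. Any E-box was found in 9 of the 10 promoters read for the 9 genes (*Tnnt2* has 2) and in 66.2% of all promoters. A CArG box was found in those of *Acta1* and *Actc1* and in 1.47% of all promoters. A MEF2 site of the searched form was found in that of *Ttn* and in 2.92% of all promoters. Other forms were not counted, such as ctatatttat in the *Myog* window, which departs from the searched form at the last base. The motif CTTTGAT of TCF/LEF factors, the nuclear effectors of WNT signals, was searched on both strands and found in 0 of these 10 windows and in 3.21% of all promoters. These matches describe the letters only.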

How the data were processed

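Total RNA of cultured ureters was hybridized to 2 two-colour Agilent arrays (design 084956). The deposited scanner files hold, per spot, raw intensity and local background and an intensity the authors' software had corrected and dye-normalized (Feature Extraction 12.2.0.7 in the file headers, 10.7.3.1 in the submitters' processing notes). The deposited series table holds a score per probe, the authors' signed fold change given to 1 decimal and used only as an alternative.

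In R 4.3.3 with limma 3.58.1 and data.table (1.17.8), mean intensities were corrected by normexp (offset 50) and normalized by loess within arrays. Outlier spots were dropped (4.51% and 3.30% of spots, 4 and 3 of the 64 spots of the 10 genes), and the rest of a probe averaged. Kept probes are defined in the report. lmFit and eBayes were run with the dye swap as a sign over 20119 genes, with Benjamini-Hochberg adjustment, and 1 residual degree of freedom. Two-sided p-values measure the spread between 2 pools per group only. For bounds, channel levels after loess and Aquantile normalization were used. The procedure was tested on simulated spots. The members and lists were chosen with earlier results of these data known. Named were all members, listed genes past FDR 0.05, the highest and lowest gene of each list (those of the neural list are not reported here), the light chain, actin and troponin families, and the 5 genes nearest to *Myl1*. Other listed genes (*Mymk*, the MEF2 genes, *Myh8*, *Myh1*, *Actn3*, *Tcf15*, *Pax3*, *Lbx1*, genes not measurable) were named after their values were seen. Alternatives covered background correction, normalization, probe filter, probe choice, variance model and threshold.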

Additional observations from a re-analysis of the deposited data

How the results depend on the processing

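*Myl1* kept its direction under all alternatives run: its mean log2 ratio was 1.79 with the processed signals and 1.76 in the series table, and 0.95 to 1.40 with 1 array left out. Of the 10 members, 7 had a mean of 1 sign in the series table and in all settings of background, normalization, filter and probe choice. *Mylpf* stayed near 0 and changed sign. *Myod1* (0.06 to 0.17) and *Ttn* (0.02 to 0.31) were above 0 in these settings. Both stood at 0 in the series table, which gives 1 decimal. The mean change of *Ttn* was 0.59 at its other kept probe, a choice made after seeing the data. Members above 0 on both arrays were 4 to 6 under these settings, and 6 to 8 were above 0 on a single array. Of other striated muscle genes, 5 were called higher in the series table and 1 (*Myh3*) at FDR 0.1. Those called lower went to 0 with median centring and to 0 without the probe filter, with mean changes close to the main ones (*Mybpc1* -1.34 in both). *Tcf21* also missed the threshold with processed signals (limma adjusted p = 0.0505). In the series table *Mybpc1*, *Tbx5* and *Tcf21* were not called (limma adjusted p = 0.331, 0.379 and 0.0931), and the 3 genes called lower there were others. Over all genes, the count called higher was 75 with processed signals, 74 without background correction, 7 with median centring, 21 without the filter, 224 with the mean over kept probes, 1038 in the series table, 226 with a trended robust prior, 224 with a trend alone (added after seeing the data) and 370 at FDR 0.1. The count called lower was 36 with median centring, 98 without the filter and 1323 in the series table, in which rounding left 18833 of 39429 probes with the same value on both arrays. The filter retained 11 genes higher and 50 lower, 73 and 165 when a fold of 1.5 was asked, and 7 and 26 when both channels had to reach an intensity of 100. On single arrays it retained 35 to 62 higher and 63 to 127 lower. It retained 0 members in each case. Except where stated, the cause was not tested. The separate-channel model with a dye term could not be fitted, since 2 arrays leave no residual degree of freedom for its correlation. Each ratio already pairs the treated and the control pool of an array, so no further replicate block was fitted. The low signal of *Myog*, *Myod1*, *Tnnt2* and *Ttn* limits their ratios.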
